A study of Mus musculus with 8 samples.

Results

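Myoglobin is the oxygen-binding haem protein of heart and skeletal muscle, and the gene that encodes it, Mb, is 1 of the 43239 named genes in these data. Its row was found by name, and 1 entry carried it. Mb was selected on its FPKM in these 8 libraries, so its levels, and those of Myh2 and Myl2 named with it, are given as a description and without a test. RNA was sequenced from quadriceps muscle of 8 female mice aged 6 months, 1 library per mouse. Of these, 4 mice are labelled wild type (WT) and 4 are labelled Mss51-/- (KO), and no treatment is named for either group. The labels do not give the strain, litter, deleted exons or part of the quadriceps. Going by its title, the study asked about metabolism of muscle and control of glucose after loss of Mss51, a gene of skeletal muscle. Both groups were handled alike as far as the labels tell, and mRNA was picked out with oligo(dT) beads.

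Myoglobin holds oxygen in the cytosol of muscle fibres, next to the mitochondria that consume it, and it also reacts with nitric oxide. It is abundant in oxidative fibres, which are rich in mitochondria and capillaries and burn fatty acids, and scarce in fast glycolytic fibres, which draw on glycogen. In mouse limb muscle the oxidative fibres are the slow ones, with the myosin Myh7, and the fast oxidative ones, with the myosin Myh2, while Myh1 and Myh4 mark faster fibres. Expression of the gene in muscle is known to depend on calcineurin, NFAT and MEF2 signalling and on the coactivator PGC-1α.

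Mb (ENSMUSG00000018893) lies on the minus strand of chromosome 15, at 77015487 to 77050670 of mm10 (GENCODE M21). The annotation gives it 6 transcripts of 331 to 1104 bases. The files give 1 value for the whole gene, so the starts cannot be told apart here. The 250 bases before the start of transcript Mb-203 (RefSeq, GRCm38.p6, chr15:77022788-77023037, minus strand) lie outside its exons in that annotation and are shown because the FPKM of Mb differed between libraries much as those of many oxidative genes did. Capitals mark matches, on either strand, to the E-box (CANNTG), the CCAC box (CCACCC) and the half-site of nuclear receptors (AGGTCA).
Mb, 250 bases before the start at 77022787: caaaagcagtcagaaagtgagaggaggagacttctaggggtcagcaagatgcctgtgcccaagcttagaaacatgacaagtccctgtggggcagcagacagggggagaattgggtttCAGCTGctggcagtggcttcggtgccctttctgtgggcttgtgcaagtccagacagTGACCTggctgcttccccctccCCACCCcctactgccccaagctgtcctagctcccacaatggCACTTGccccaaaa

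The E-box, the core bound by myogenic factors such as MyoD, occurred at bases -133 to -128 and -14 to -9 from that start, and 66.2% of all 32851 windows of this length in the RefSeq table hold at least 1. The CCAC box stood at -55 to -50, and 28.1% of windows hold it. The half-site stood at -77 to -72 on the opposite strand, and 14.0% of windows hold it. The NFAT core (GGAAAA, in 20.4% of windows), the MCAT core (CATTCC, 12.6%) and the MEF2 site (2.92%) had no match among the letters of the 3 windows listed for Mb. None of the motifs overlapped another in the window shown. These are matches of letters and not measurements of binding.

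Before the values of Mb, 2 facts on the libraries matter. Mss51, the targeted gene, was higher in every library labelled KO, at 241 ± 66.1 FPKM against 28.0 ± 6.28 in the libraries labelled WT (SD, n = 4 each; limma adjusted p = 0.000643). This is not the direction that a loss of Mss51 RNA would give. The deleted exons are not named and each gene has 1 value, so the labels cannot be checked from this RNA. Every direction below is that of the labels. KO replicate 1 stood apart from the other libraries labelled KO in Mb and many of the genes below, and results are therefore given with and without it. FPKM is a level scaled for transcript length and library size, so that levels can be set side by side between genes. The deposited values hold no counts, and a rough estimate from their low values gave 38.6 to 57.2 M fragments per library (M for mega). At that depth the counting error of Mb is 0.319% to 0.525% in a library, far below the spread between mice. No batch is named in the labels.

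Mb stood at 1624, 1695, 1686 and 1937 FPKM in WT replicates 1 to 4. In KO replicates 1 to 4 it stood at 1838, 4704, 3645 and 4010 FPKM. The WT libraries were tightly grouped, KO replicate 1 lay inside their range, and the other 3 libraries labelled KO lay far above it. The order from low to high was thus WT replicates 1, 3 and 2, KO replicate 1, WT replicate 4, and then KO replicates 3, 4 and 2. Among the 5 lower libraries, neighbours in that order differed by less than the WT standard deviation of 138 FPKM, except for WT replicate 2 and KO replicate 1, which differed by slightly more. Among the 3 upper ones, KO replicates 3 and 4 differed by less than their common standard deviation and KO replicates 4 and 2 by more. Group means were 1735 ± 138 FPKM for WT and 3549 ± 1223 for KO (SD, n = 4 each), a ratio of 2.05. The standard deviation was 7.95% of the mean among WT libraries and 34.4% among KO libraries. On the scale of log2(FPKM + 0.5), KO minus WT was 0.95 (SE 0.26). Without KO replicate 1 the KO mean was 4120 ± 538 FPKM (SD, n = 3), the ratio 2.37 and the log2 difference 1.24 (SE 0.12).

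Among named genes Mb ranked between 42nd and 45th by FPKM in the WT libraries and in KO replicate 1, and between 17th and 22nd in the other 3. Tnnt3, Tpm1 and Atp2a1, abundant where they have a value, are listed at 0 in different libraries. Among genes above 0 in every library Mb ranked 36th to 39th in those 5 libraries and 13th to 18th in the other 3. Set against Ckm, the muscle creatine kinase, which frees the value from the scaling of a library, Mb was 13.3% to 17.0% of Ckm in the WT libraries. It was 15.9% of Ckm in KO replicate 1 and 51.0%, 32.0% and 40.1% in KO replicates 2 to 4. Ckm itself stood at 9230 FPKM in KO replicate 2 and 10010 in KO replicate 4, below its WT range of 10545 to 12716. That raises the ratio in these libraries. In KO replicates 1 and 3 Ckm lay within the WT range. Against Des, the intermediate filament protein desmin, the ratio was 1.95 ± 0.0704 among WT libraries and 3.79 ± 1.23 among KO libraries (SD, n = 4 each). The order of the libraries labelled KO was the same by both ratios as by FPKM. The labelled tissue was checked against muscle markers: Ckm, Des, Myod1 and Ttn were present in every library, with a sum of 11470 to 13699 FPKM among WT libraries and 10256 to 12496 among KO libraries, Acta1 not being analysed here. In bulk muscle, fewer fibres of a type and less RNA per fibre cannot be told apart.

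**Figure D1:**
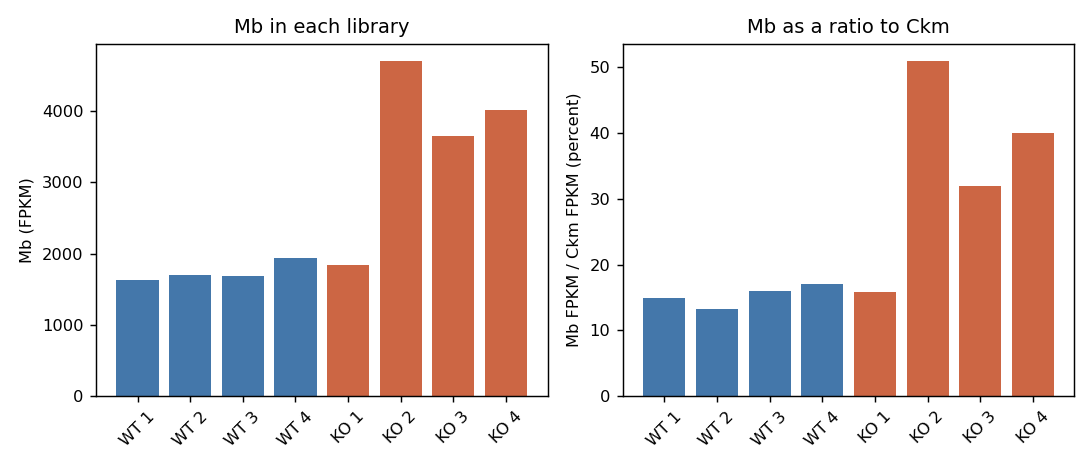
The left panel plots Mb FPKM as a bar per library, and the right panel plots Mb as a percent of the FPKM of Ckm in the same library, with blue bars for libraries labelled WT and orange bars for those labelled KO. KO replicate 1, at 1838 FPKM and 15.9% of Ckm, sits among the WT bars, while KO replicates 2 to 4 reach 3645 to 4704 FPKM. Ckm itself was below its WT range in KO replicates 2 and 4.

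Counts of genes below are read against all 11878 genes tested. Of them 6, or 0.0505%, passed limma with all 8 libraries, the median log2 difference of all genes was 0.02, and 54.4% were above 0. Rescaling each library to an equal sum of named genes (TPM) moved that median to -0.18 and the difference of Mb from 0.95 to 0.74. The positive single-gene differences of at most 0.20 given below were negative under it. Those only slightly above 0.20, such as Ppargc1b and Esrra at 0.21, came close to 0. The sums behind this rescaling were 1678971 FPKM in KO replicate 4 and 1123846 in WT replicate 3, against 620131 to 718052 in the other libraries. At least 3 of 4 KO libraries lay above every WT library in 1661 genes, or 14.0%, and below every WT library in 8.37%. All 4 lay above in 3.89%. Where exactly 3 KO libraries lay above, the remaining one was KO replicate 1 in 648 genes, and replicates 2, 3 and 4 in 155, 198 and 198 genes. Across the 234 distinct entries of the lists other than cell type markers, Myh2 and Myl2 left out, 0 passed with all 8 libraries and 101 had at least 3 KO libraries above every WT library. Without KO replicate 1, 25 of them passed as higher and 1 as lower, against 0.951% and 0.101% of all genes. That library was left out because of its values in these same genes, which narrows their spread among KO libraries. Calls made without it, here and below, are therefore a description and not a test. Mb and these lists were chosen with results of these data known, so such shares describe the lists and support nothing beyond that.

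Mb followed Myh2, the heavy chain of fast oxidative fibres, in which libraries were high. Myh2 stood at 127, 96.6, 141 and 156 FPKM in WT replicates 1 to 4 and at 125, 494, 447 and 391 in KO replicates 1 to 4. Again KO replicate 1 lay within the WT range and the other 3 lay above it, with KO replicate 2 the highest of all 8 for both genes. The group means of Myh2 were 130 ± 25.4 and 365 ± 165 FPKM (SD, n = 4 each), with a log2 difference of 1.33 (SE 0.40), or 1.78 (SE 0.17) without KO replicate 1. Mb carried 12.0 to 17.5 times the FPKM of Myh2 in the WT libraries, 14.7 times in KO replicate 1 and 8.15 to 10.2 times in KO replicates 2 to 4. The sarcomeric myosins are near-identical over long stretches, so the split of reads among them is uncertain.

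Myl2, the regulatory light chain of slow fibres, gave the same division of libraries with another order at the top. It stood at 260, 198, 353 and 298 FPKM in WT replicates 1 to 4 and at 272, 605, 876 and 763 in KO replicates 1 to 4. The KO library with the most Mb, replicate 2, had the least Myl2 of the 3 high libraries, and the one with the least Mb, replicate 3, had the most. The log2 difference of Myl2 was 1.08 (SE 0.35), or 1.44 (SE 0.21) without KO replicate 1. The ratio of Mb to Myl2 was 4.77 to 8.55 among WT libraries and 4.16 to 7.78 among KO libraries, which overlap.

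The other slow-fibre genes divided into those that shared the pattern and those that did not. Myh7, the slow heavy chain, which the files join with Myh6, stood at 32.2 ± 7.68 FPKM among WT libraries and 29.9 ± 4.58 among KO libraries (SD, n = 4 each; log2 difference -0.09, SE 0.18). All 4 of its KO values, 26.4 to 36.4 FPKM, lay within its WT range of 23.0 to 41.5. The slow troponins, chosen after their values were seen, had small differences too, at 0.17 for Tnnc1, 0.27 for Tnni1 and 0.35 for Tnnt1. By contrast the slow light chain Myl3 (0.56) and the Z-disc protein Myoz2 (0.99), also chosen after their values were seen, had 3 of 4 KO libraries above every WT library. Of the 13 contractile genes of slow and oxidative fibres in the list other than Myh2 and Myl2, 0 passed over all genes tested, 7 had at least 3 KO libraries above every WT library, and the median log2 difference was 0.41, or 0.22 after rescaling to TPM. Leaving out KO replicate 1, 3 of the 13 passed as higher and the median was 0.45.

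**Figure D2:**
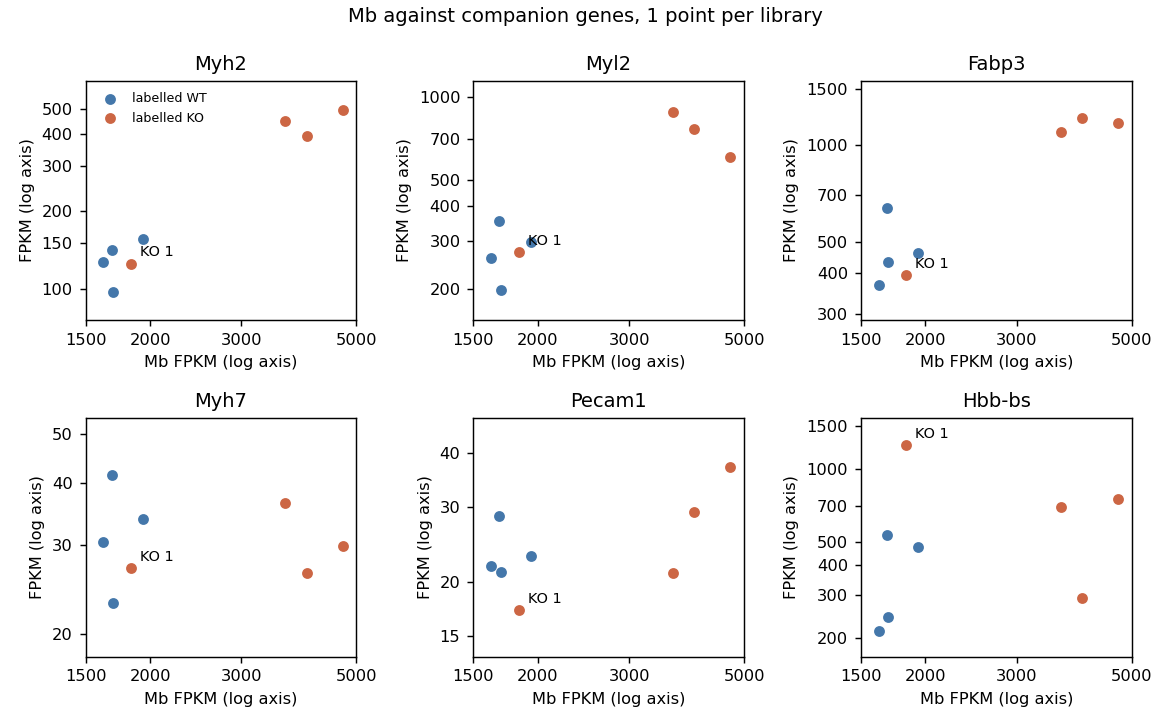
Each panel plots the FPKM of a companion gene (vertical log axis) against Mb FPKM (horizontal log axis), with 1 point per library, blue for libraries labelled WT and orange for KO. Myh2, Myl2 and Fabp3 separate KO replicates 2 to 4 from the other 5 libraries as Mb does, whereas Myh7 overlaps, Pecam1 is high in KO replicates 2 and 4 but not 3, and Hbb-bs is highest in KO replicate 1.

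No correlation coefficient over the 8 libraries is given for Mb and these genes. The libraries fall into separate clusters of 5 and 3, and neither holds the 6 libraries taken here as the fewest for a coefficient. Values by library stand in its place.

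Genes of fast glycolytic fibres did not share the pattern. Myh1 stood at 317 ± 52.4 and 333 ± 51.2 FPKM, the fast regulatory light chain Mylpf at 11690 ± 1701 and 10648 ± 1665, and the fast essential light chain Myl1 at 10157 ± 1453 and 9696 ± 1585 among WT and KO libraries (SD, n = 4 each). Of 13 tested members 0 passed, 0 had at least 3 KO libraries above every WT library and 3 had at least 3 below. These 3, named after their values were seen, are Mybpc2, Casq1 and Pvalb, with log2 differences of -0.46, -0.21 and -0.28. The median log2 difference of the list was -0.07. Atp2a1, Tnnt3 and Tpm1 are listed at 0 in some libraries, and over the other 10 the median was -0.14, or -0.35 after rescaling to TPM. Without KO replicate 1, 0 passed, and the median was -0.17 over the 13 and -0.22 over the 10. Myh4, the heavy chain of the fastest fibres, is listed at 0 in all 8 libraries. A 0 here need not mean absence, since Atp2a1 is at 0 in every WT library and at 6599 FPKM in KO replicate 2. The level of Myh4 is thus unknown, and the shares that follow are not shares of all myosin. Of the summed FPKM of Myh1, Myh2 and Myh7 alone, Myh2 made up 25.6% to 28.4% in the WT libraries. It made up 27.5% in KO replicate 1 and 53.3% to 55.4% in KO replicates 2 to 4. The share of Myh7 was 6.13% to 8.15% in the WT libraries, 5.94% in KO replicate 1 and 3.22% to 4.45% in KO replicates 2 to 4.

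A further list of 11 genes rich in oxidative fibres held cytosolic proteins, as myoglobin is, but also mitochondrial, membrane and secreted ones. Fabp3, the fatty acid binding protein of heart and muscle, stood at 367, 433, 640 and 463 FPKM in WT replicates 1 to 4 and at 395, 1176, 1101 and 1217 in KO replicates 1 to 4. The ratio of Mb to Fabp3 was 3.79 ± 0.798 among WT libraries and 3.82 ± 0.650 among KO libraries (SD, n = 4 each), so the pair kept its proportion within the spread. The small heat shock protein Cryab had a log2 difference of 0.55, with 3 KO libraries above every WT library. Ldhb, the lactate dehydrogenase subunit of oxidative tissue, chosen after its values were seen, stood at 112.4 to 161.2 FPKM among WT libraries, 135 in KO replicate 1 and 423 to 448 in KO replicates 2 to 4. Car3, the carbonic anhydrase of slow fibres, went the other way, at 1399 ± 257 against 1184 ± 342 FPKM (log2 difference -0.26), with KO replicates 2 to 4 below every WT library. Of the 11 tested members 0 passed, 7 had at least 3 KO libraries above every WT library, among them the mitochondrial Ckmt2 and Cox7a1, and the median was 0.46, or 0.24 after rescaling to TPM. With KO replicate 1 left out, 3 passed as higher and the median was 0.61.

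Fuel oxidation showed the same libraries high, by smaller amounts. In the list of fatty acid uptake and beta-oxidation all 23 members were above 0 and all 23 had at least 3 KO libraries above every WT library, with a median log2 difference of 0.36 and 0 past the test. After rescaling to TPM that median was 0.14. Lpl, the lipase that frees fatty acids from lipoproteins, stood at 108 to 156 FPKM among WT libraries, 142 in KO replicate 1 and 252 to 301 in the other 3 (log2 difference 0.79, SE 0.24). The fatty acid transporter Cd36 differed by 0.38 (SE 0.25), and the dehydrogenase Acadm by 0.26 (SE 0.10). Without KO replicate 1, 12 of the 23 passed as higher and the median was 0.48.

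In the TCA cycle all 15 members were above 0, 12 had at least 3 KO libraries above every WT library, and the median was 0.14 with 0 past the test, or -0.07 after rescaling to an equal sum of named genes. Idh2, the mitochondrial NADP-dependent isocitrate dehydrogenase, stood at 150 ± 13.2 against 288 ± 99.2 FPKM (SD, n = 4 each; 0.86), with 148 in KO replicate 1. Citrate synthase, Cs, differed by 0.14. Respiratory chain subunits had 32 of 32 members above 0, 30 with at least 3 KO libraries above every WT library and 16 with all 4, and a median of 0.27 with 0 past the test, or 0.06 after that rescaling. Cytochrome c, Cycs, differed by 0.22, and the complex II subunits Sdha and Sdhb by 0.13 and 0.37. KO replicate 1 therefore lay above the WT libraries in a larger part of this list than of the fatty acid list, where 3 of 23 had all 4 KO libraries above, a difference that was not tested. Without KO replicate 1, 2 of the 15 TCA cycle genes and 2 of the 32 subunits passed as higher, with medians of 0.22 and 0.33.

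Glycolytic genes stood lower in the libraries where Mb stood higher. Phosphofructokinase, Pfkm, was at 1155 to 1297 FPKM among WT libraries, 1286 in KO replicate 1 and 921 to 1010 in the other 3 (log2 difference -0.27, SE 0.11). Pyruvate kinase, Pkm, differed by -0.20 and the lactate dehydrogenase subunit Ldha by -0.18. Of 15 members 0 passed, 10 had at least 3 KO libraries below every WT library, and the median was -0.20. Without KO replicate 1, 1 passed as lower, the phosphorylase kinase subunit Phka1, named after its values were seen, and the median was -0.28.

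Capillary genes followed Mb only in part. Pecam1, an adhesion molecule of endothelial junctions, stood at 21.8, 21.1, 28.6 and 23.0 FPKM in WT replicates 1 to 4 and at 17.2, 37.2, 21.0 and 29.2 in KO replicates 1 to 4. KO replicate 3, which had high Mb, was below every WT library for Pecam1. Cdh5, the cadherin of endothelial junctions, stood at 17.1 to 26.0 FPKM among WT libraries and at 15.5, 33.0, 20.4 and 27.0 in KO replicates 1 to 4, so that KO replicate 3 lay within its WT range. The VEGF receptor Kdr had 3 KO libraries above every WT library, at 6.68 to 8.87 FPKM among WT libraries and 7.06, 13.6, 9.50 and 13.3 in KO replicates 1 to 4 (log2 difference 0.36, SE 0.20). Gpihbp1, which holds Lpl at the capillary wall, stood at 28.7 to 43.2 FPKM among WT libraries and 32.3, 68.3, 51.4 and 53.2 in KO replicates 1 to 4, and was chosen after its values were seen. Of the 19 tested capillary genes 0 passed, and 3 had at least 3 KO libraries above every WT library, against 14.0% of all genes. Their median was 0.16, or -0.05 after that rescaling. By library the median over these genes was 0.53 above the WT mean in KO replicate 2 and 0.41 in KO replicate 4, but -0.07 in KO replicate 3 and -0.18 in KO replicate 1. Again 0 passed without KO replicate 1, and the median log2 difference was 0.29.

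Pericyte genes, markers of the cells that wrap capillaries, had a median of -0.04, with 0 of 7 past the test and 0 with at least 3 KO libraries above every WT library. Their log2 differences were -0.14 for Rgs5, -0.04 for Pdgfrb, 0.03 for Cspg4, -0.16 for Abcc9, 0.14 for Kcnj8, 0.54 for Higd1b and -0.11 for Notch3. Among 8 tested angiogenic factors the median was 0.20 and 0 passed. Vegfa, the main factor released by muscle fibres, stood at 51.0 ± 11.7 and 50.4 ± 4.79 FPKM (SD, n = 4 each), while Vegfb differed by 0.25 with all 4 KO libraries above every WT library, and Angpt1 by 0.17.

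**Figure D3:**
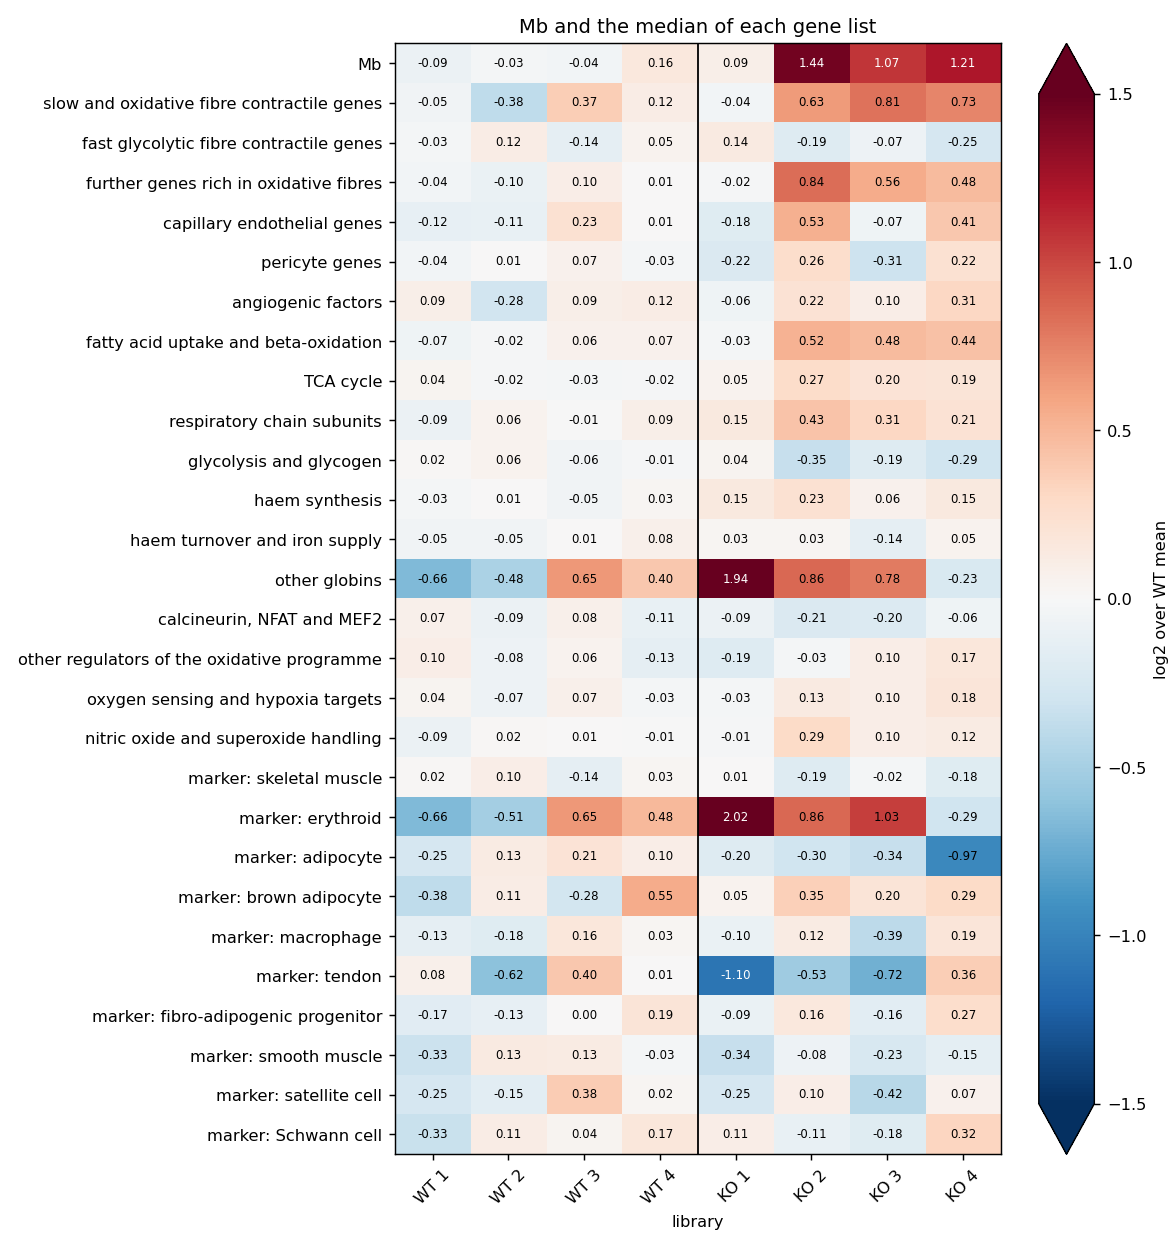
Each row is Mb or a gene list, each column a library, and each cell gives the value of Mb, or the median over the tested members of the list, on the log2(FPKM + 0.5) scale after subtracting each gene's WT mean (colour scale and printed numbers in log2 units). The row of Mb stands at 1.07 to 1.44 in KO replicates 2 to 4 and 0.09 in KO replicate 1. Its division of libraries is matched by the slow and oxidative, further oxidative and fatty acid rows. The slow and oxidative row includes Myh2 and Myl2, which were named with Mb. Capillary genes in KO replicate 3 lie within the range of the WT libraries, and other globins are highest in KO replicate 1.

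The other globins ordered the libraries differently from Mb. Haemoglobin RNA comes from blood cells in the tissue: Hbb-bs, a beta chain, stood at 215, 244, 535 and 475 FPKM in WT replicates 1 to 4 and at 1247, 749, 695 and 294 in KO replicates 1 to 4. The library with the most haemoglobin, KO replicate 1, thus had the least Mb of its group, and KO replicate 4, with 294 FPKM of Hbb-bs, had 4010 FPKM of Mb. Hba-a1, Hba-a2 and Hbb-bt had log2 differences of 0.77, 0.82 and 0.99, and copies so alike share reads. Cygb, the globin of fibroblasts and related cells, stood at 21.3 ± 3.86 and 20.8 ± 2.60 FPKM (SD, n = 4 each), and Mb was 71.2 to 98.0 times as high in the WT libraries. Ngb, the globin of neurons, was at most 0.183 FPKM and not tested. Of the 5 tested globins other than Mb 0 passed, 3 had at least 3 KO libraries above every WT library, and the median was 0.82, or 0.40 without KO replicate 1.

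Genes that make haem, which myoglobin needs to bind oxygen, had small differences for the most part. Alas1, the first enzyme of the pathway outside the red cell lineage, stood at 49.3 ± 3.58 against 58.3 ± 10.7 FPKM (SD, n = 4 each; log2 difference 0.23), and Alad differed by 0.20. Alas2, the form of that enzyme in red cell precursors, named after its values were seen, stood at 7.86, 6.42, 16.3 and 17.0 FPKM in WT replicates 1 to 4 and at 45.7, 18.7, 24.8 and 8.81 in KO replicates 1 to 4 (log2 difference 0.91), highest in KO replicate 1 as haemoglobin was. Of 10 tested members 0 passed, 3 had at least 3 KO libraries above every WT library, and the median was 0.18, or -0.03 after that rescaling. Haem turnover and iron supply had a median of -0.0021, with 0 of 12 past the test. Its oxygenases Hmox1 and Hmox2 stood at -0.16 and 0.02, and the biliverdin reductase Blvra at 0.19.

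Known regulators of Mb differed in both directions. The calcineurin subunits stood slightly lower, at -0.14 for Ppp3ca, -0.19 for Ppp3cb and -0.15 for Ppp3r1 (joined with Wdr92), each with 3 KO libraries below every WT library. Of the 12 genes of calcineurin, NFAT and MEF2 0 passed, and the median was -0.14. In this list 6 had at least 3 KO libraries below every WT library, against 8.37% of all genes. Only 1 had at least 3 above, against 14.0% of all genes. The gene above, named after its values were seen, is Rcan2, a calcineurin inhibitor. Rcan2 stood at 16.5 to 19.0 FPKM among WT libraries, 15.9 in KO replicate 1 and 26.9 to 28.2 in the other 3. Ppargc1a, which encodes PGC-1α, stood at 11.9 ± 0.827 and 12.4 ± 4.37 FPKM (SD, n = 4 each), with its highest value, 17.9, in KO replicate 3 and its lowest, 7.80, in KO replicate 1. Its relative Ppargc1b differed by 0.21 and the receptor Esrra by 0.21, with all 4 KO libraries above every WT library for Esrra. The related receptors Esrrb and Esrrg, chosen after their values were seen, had 3 KO libraries above every WT library. Esrrb stood at 2.07 to 3.91 FPKM among WT libraries, 2.07 in KO replicate 1 and 6.77 to 7.18 in the other 3. Esrrg stood at 6.31 to 10.3 FPKM among WT libraries, 6.32 in KO replicate 1 and 14.0 to 16.2 in the other 3. Of the 16 tested regulators in that list 0 passed, and the median was -0.02. With KO replicate 1 left out, 1 gene passed as higher in the calcineurin list, Rcan2, and 1 in this list, Esrrb.

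Of 14 oxygen sensing genes 0 passed the test, 4 had at least 3 KO libraries above every WT library and 1 had at least 3 below. Their median was 0.08, or -0.13 after that rescaling. Hif1a differed by -0.04, Epas1, the other alpha subunit of hypoxia-inducible factor, by 0.13, and the prolyl hydroxylase Egln1 by 0.13. Egln3, a prolyl hydroxylase that is itself a hypoxia target, chosen after its values were seen, stood at 16.0 to 27.5 FPKM among WT libraries, 15.3 in KO replicate 1 and 59.3 to 85.6 in the other 3, and was the 1 gene of the list that passed, as higher, without KO replicate 1. In the list of nitric oxide and superoxide handling, 0 of 9 passed and the median was 0.12, or -0.08 after that rescaling. Nos1, the neuronal nitric oxide synthase of the muscle membrane, stood at -0.24, Nos3 at 0.03 and Sod1 at 0.02.

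The genes nearest to Mb in pattern were ranked among 5396 others with a mean of at least 10 FPKM and no value of 0. Each gene's log2(FPKM + 0.5) was centred on its mean over the 8 libraries, and likeness is the root mean square difference from the centred profile of Mb, in log2 units. A gene equal in all libraries would stand at 0.60, and the median gene stood at 0.61. The 12 closest stood at 0.14 to 0.22, and the next gene at 0.22. This ranking uses the same libraries as the choice of Mb and is a description. It depends on the measure: 6 of the 12 remained when each genotype group was centred on its own mean, and 1 when genes were ranked by Pearson correlation.

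Closest by this measure was Ckmt2, the mitochondrial creatine kinase of sarcomeric muscle, at 0.14. It stood at 923, 697, 829 and 819 FPKM in WT replicates 1 to 4 and at 800, 2169, 1603 and 1760 in KO replicates 1 to 4. The order of the libraries labelled KO, replicates 2, 4, 3 and 1 from high to low, was that of Mb. The order of the WT libraries was not, since WT replicate 1 had the most Ckmt2 and the least Mb of its group. The ratio of Mb to Ckmt2 was 2.15 ± 0.312 among WT libraries and 2.25 ± 0.0577 among KO libraries (SD, n = 4 each). It ran from 1.76 to 2.43 among WT libraries and from 2.17 to 2.30 among KO libraries. Ckmt2 was picked for its likeness to Mb in these same libraries, so a similar ratio in both groups follows from that choice. Next came Iqsec2, an exchange factor for Arf GTPases, at 9.94 ± 0.699 against 20.2 ± 5.76 FPKM, and Fndc5, the precursor of the secreted peptide irisin, at 25.5 ± 1.43 against 46.1 ± 13.2 FPKM (SD, n = 4 each).

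Of the others, Actn2, the alpha-actinin of Z-discs in all fibres, stood at 133 to 197 FPKM among WT libraries, 140 in KO replicate 1 and 320 to 387 in the other 3. Twf2, an actin-binding twinfilin, had a log2 difference of 0.68, and Smtnl1, a smoothelin-like protein of muscle, had 0.99. Dgat2, which makes triglycerides, stood at 0.69, Grb14, an adaptor that binds the insulin receptor, at 0.76, and Fxyd6, a regulator of the sodium pump, at 0.76. Adprhl1 stood at 0.83, the RNA-binding protein Khdrbs3 at 0.71, and Ddt, joined with Gm20441 and Gstt3, at 0.68. The 12 lie on 9 chromosomes, and 1, Khdrbs3, shares chromosome 15 with Mb. Iqsec2, Dgat2 and Ddt had all 4 KO libraries above every WT library, and the other 9 had 3. Promoter windows were listed for 9 of the 12, and at least 1 window held the E-box in 8 of these 9 genes, the CCAC box in 4, the half-site in 1 and the MEF2 site in 0.

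Myh2 ranked 63rd and Myl2 65th of 5396 by this measure, at 0.33 each, both with larger log2 differences than Mb. Fabp3 ranked 24th (0.25), Lpl 17th (0.23), Idh2 14th (0.22), Gpihbp1 45th (0.30) and Cd36 92nd (0.37). Pecam1 ranked 480th (0.49), Cs 623rd (0.50), Ppargc1a 1310th (0.55), Myh1 1502nd (0.56) and Hbb-bs 5304th (0.90). By list, the median rank was 90 for the further list of 11 genes rich in oxidative fibres, 107 for the 23 genes of fatty acid uptake and oxidation, 347.5 for 32 respiratory chain subunits and 459 for the 14 capillary genes above the level limit. It was 705 for 13 contractile genes of slow and oxidative fibres, here with Myh2 and Myl2 among them, and 623 for the TCA cycle. It was 4965 for 10 fast contractile genes and 5078 for 15 glycolytic genes.

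The mirror image of the profile, a comparison added after the values were seen, was closest in Fbp2, the muscle fructose bisphosphatase of gluconeogenesis. It stood at 46.8, 56.4, 57.2 and 48.9 FPKM in WT replicates 1 to 4 and at 60.7, 18.3, 30.4 and 30.6 in KO replicates 1 to 4. The library with the most Mb had the least Fbp2. Fam57b was next (log2 difference -0.70), then Slc16a3, the lactate exporter of glycolytic fibres, at 221 ± 23.0 against 152 ± 59.7 FPKM (SD, n = 4 each; -0.61), and the muscle-secreted peptide Ostn (-0.75).

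**Figure D4:**
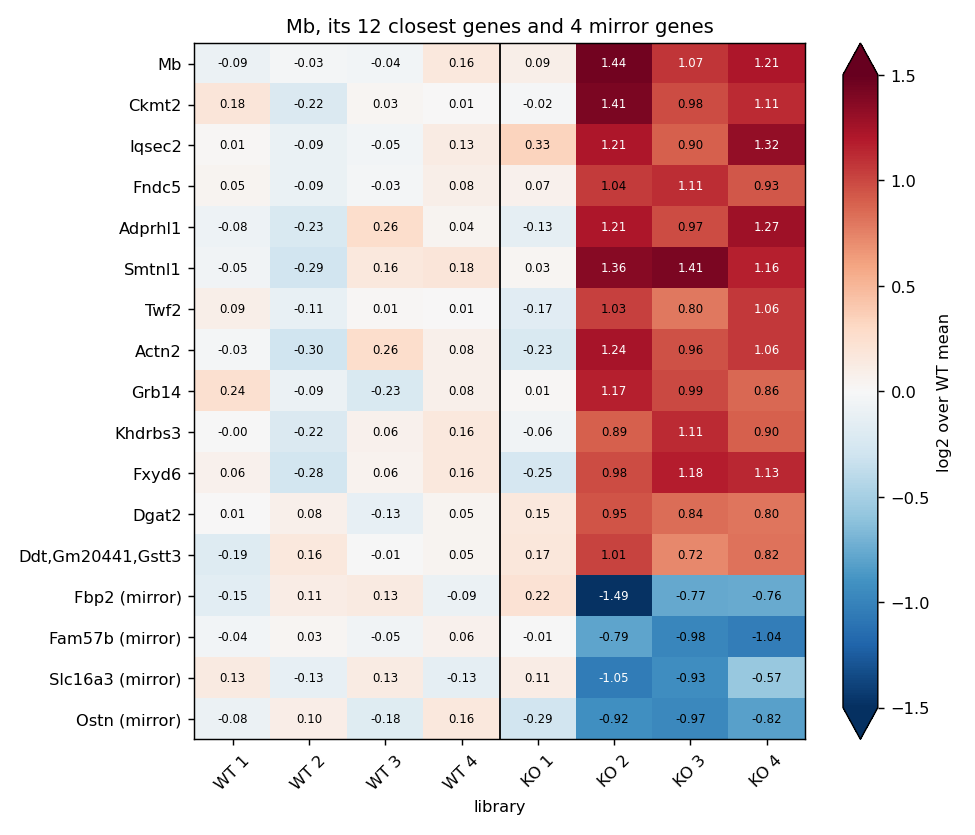
Rows are Mb, the 12 genes closest to it and the 4 closest to its mirror image, and columns are libraries. Cells give log2(FPKM + 0.5) after subtraction of each gene's WT mean. KO replicates 2 to 4 stand apart in every row and KO replicate 1 lies between -0.29 and 0.33.

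Neighbours of Mb on chromosome 15 were examined for a shift of the region. Apol6, an apolipoprotein L, lies on the opposite strand at 77044729 to 77057106 and shares 64 exonic bases with Mb, 4.29% of the exonic bases of Mb. It stood at 10.6, 9.56, 10.5 and 12.5 FPKM in WT replicates 1 to 4 and at 8.97, 21.1, 15.9 and 14.2 in KO replicates 1 to 4. Its order of KO libraries differs from that of Mb only in replicates 3 and 4, and its log2 difference was 0.41 (SE 0.22). Since the strand setting is not given in the sources used here, fragments of the 2 genes may not be told apart where exons overlap. Apol6 amounted to 0.355% to 0.652% of the FPKM of Mb. The antisense gene Gm49540 shares 412 exonic bases with Mb, 27.6% of them, and was not analysed here, nor was Gm35933. The next genes outward did not share the pattern: Rbfox2, a splicing factor, had a log2 difference of 0.02, 1110038F14Rik had 0.19, and Gm24753 is listed at 0. None of the 3 tested neighbours passed.

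Markers of other cells in the muscle are given beside these results, and their part in them was not tested. The sum of the erythroid markers, of which 5 of 6 were tested, was 509 to 1334 FPKM among WT libraries and 653 to 3172 among KO libraries, highest in KO replicate 1, with 4 of 5 having at least 3 KO libraries above every WT library. Adipocyte markers summed to 329 to 433 and 284 to 458 FPKM, and 3 of 7 had at least 3 KO libraries below every WT library. Lep, the adipocyte hormone leptin, was 2.29 to 4.40 FPKM among WT libraries, 2.79 in KO replicate 1 and 0.324 to 0.577 in the other 3. Brown adipocyte markers summed to 1998 to 2827 FPKM and 2817 to 3350, nearly all of it Cox8b, a respiratory chain subunit also made in muscle, while Cidea was at most 3.43 FPKM. Ucp1, which defines those cells, was at most 2.36 FPKM and listed at 0 in WT replicate 1 and KO replicate 1. Tendon markers summed to 64.5 to 131 FPKM and 43.5 to 120, macrophage markers to 40.3 to 53.3 and 34.1 to 55.2, those of fibro-adipogenic progenitors to 677 to 844 and 634 to 840, and those of smooth muscle to 45.4 to 65.3 and 43.5 to 50.2. Schwann cell markers summed to 21.6 to 30.7 and 23.0 to 35.5, and satellite cell markers to 6.53 to 10.2 and 5.74 to 8.04. None of these markers passed with all 8 libraries. Without KO replicate 1, Lep passed as lower (log2 difference -2.05) and no other did. None was listed at 0 in all of them.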

How the data were processed

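Per the file headers, the authors deposited 1 table of FPKM per library. Per the submitters' processing notes, the tools were Cufflinks 2.2.1, TopHat2 2.1.1, Bowtie2 2.2.6 and FastQC, on mm10, with no role given, and the annotation and strand setting are not given in the sources used here. Each table has 46036 entries, 2379 without a name, which held 65.8% to 93.2% of the FPKM sum and were left out. Of 344 names on several entries the one with the highest mean was used. FPKM were analysed as log2(FPKM + 0.5) without further scaling. Genes averaging 1 FPKM or more, 11878 in all, entered a limma fit (version 3.58.1, R 4.3.3) of KO against WT (genotype alone, variances with a mean trend, two-sided, Benjamini-Hochberg over all genes, threshold 0.05). P-values measure the spread between these mice.

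The member, lists, companions and tests were chosen with earlier results of these data known. Genes named are Mb, Mss51, Myh2, Myl2, the 12 closest, 3 annotated neighbours on either side, the first 3 tested members of each list in written order, or all in lists of up to 7 tested, and any list member past the threshold. Others are said to be chosen after their values were seen. Some genes that this rule names are not reported here. For a rough depth, FPKM of single-transcript genes were multiplied by length less 200 bases, and the most crowded low value, between bounds of 30 and 80 M fragments, stood for 1 fragment. These bounds limit it. Alternatives were pseudocounts, filters, scalings, the replicate block and leaving out each library. On simulated data with 200 of 11878 genes changed, 53.7%, 67.2% and 93.9% of those changed 1.5-, 2- and 4-fold were called, with 3 false calls. There the noise was drawn separately for each gene, with the same spread in both groups. In the data the spread of Mb was larger among KO libraries, so these rates need not hold for the genes above.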

Additional observations from a re-analysis of the deposited data

Results flagged for a closer look

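In groups of 4, a library is listed here when its gap to the nearest other exceeds Dixon's 95% critical share of the group's range. This held in 16 of 256 groups checked, and chance alone gives about 1 in 20. Mb itself did not meet it, since the gap below its KO values was 0.631 of their range.

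KO replicate 1 was the library concerned in 9 of these groups. It was low for Fabp3 (394.7 FPKM, others 1101 to 1217), Ldhb (134.6, others 423.5 to 448.4), Esrrb (2.069, others 6.766 to 7.184) and Rcan2 (15.87, others 26.92 to 28.17). It was high for Car3 (1692, others 968.2 to 1083), Lep (2.789, others 0.324 to 0.577), Ppp3r1 (124.4, others 96.44 to 101.1) and the phosphorylase kinase subunit Phka1 (147.3, others 104.8 to 110.1). It was also the highest for the targeted gene, Mss51 (339.6, others 200.9 to 215.7).

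The remaining 7 concerned other libraries. Fmod was 64.36 FPKM in KO replicate 4 (others 23.28 to 30.06) and Tnnt1 was 141.4 in KO replicate 3 (others 89.96 to 95.2). Among WT libraries, replicate 1 was low for Cidec (15.12, others 25.84 to 28.02) and high for Hif1a (10.11, others 8.348 to 8.599) and Ppargc1b (6.432, others 2.412 to 2.701). WT replicate 3 was low for Pfkm (1155, others 1279 to 1297), and WT replicate 2 was high for Ppp3cb (118.4, others 113.6 to 114.0).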

How the results depend on the processing

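The log2 difference of Mb stayed positive in every alternative run, from 0.74 after rescaling each library to an equal sum of named genes (TPM) to 1.24 without KO replicate 1, and leaving out 1 library gave 0.79 to 1.24. Under TPM the median over all genes went from 0.02 to -0.18, and those of the capillary, TCA cycle, haem synthesis, oxygen sensing and nitric oxide lists to -0.05, -0.07, -0.03, -0.13 and -0.08. The fatty acid and respiratory chain medians became 0.14 and 0.06. Myh2 ranged from 1.11 to 1.78 and Myl2 from 0.87 to 1.44. Genes past the threshold numbered 114 after TPM, 0 with the replicate block and 4 to 125 without 1 library, the highest without KO replicate 1. Replicate numbers share only a number: same-numbered libraries had correlations of deviations from -0.08 to 0.01. List entries past the threshold numbered 2 after TPM, namely Atp2a1 and Tpm1, which are listed at 0 in some libraries. Without 1 library such entries numbered 0 to 28, and 28 was reached without KO replicate 1. The 28 include Myh2 and Myl2, which were named with Mb, so this count is a description and not a test. With Myh2 and Myl2 left out, 25 entries passed as higher and 1 as lower without KO replicate 1. Of the 12 genes closest to Mb, 7 to 11 remained without 1 library, 7 without WT replicate 3, 6 when each genotype group was centred on its own mean, and 1 when ranked by Pearson correlation. The median-ratio scaling, added after the data were seen, left 0.93 for Mb. For the capillary, TCA cycle, haem synthesis, oxygen sensing and nitric oxide lists it gave medians of 0.14, 0.12, 0.15, 0.06 and 0.10. The cause of these changes was not tested. Of 434 alternative list medians, 413 stayed within the spread of their libraries, as did 1965 of 2013 for single genes. Mss51 lost its call with the replicate block (3.07). Without counts, no counting interval for low genes is given.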
